A study of Mus musculus with 6 samples.

Results

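A set of 10 genes of fat cell formation and fat storage was followed in RNA sequencing of mouse pancreatic fibroblasts: Pparg, Cebpa, Cebpb, Cebpd, Zfp423, Fabp4, Lpl, Cd36, Plin2 and Pnpla2. They were chosen by name, with earlier results of these data known. Of the 10, 8 have a row among the 14831 genes of the count table. By symbol 7 were found. Zfp423 is listed by its Ensembl identifier alone and was named from GENCODE. Fabp4 (chromosome 3 from 10204088 to 10208576) and Cd36 (chromosome 5 from 17781690 to 17888801) have no row there, so no level can be given for either.

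The study has 6 libraries from immortalized fibroblasts of mixed strain, 3 labelled WT and 3 labelled KO with the genotype Gli2-/-;Gli3-/-, each from its own confluent well. According to the study's methods, the lines came from the pancreas of adult mice with floxed Gli alleles. Control lines received a GFP adenovirus and a dsRed lentivirus, and knock-out lines a GFP and a Cre adenovirus, with Cre under the CMV promoter, before infected cells were sorted. Both groups therefore received virus. The number of lines per genotype is not given in the sources used here, so that p-values measure the spread between wells, which may be technical. The medium was DMEM with calf serum, and no adipogenic induction is named.

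Adipogenesis, the conversion of a fibroblast-like precursor into a fat cell, is driven by a cascade of transcription factors. Zfp423 marks committed precursors, Cebpb and Cebpd act early, and Pparg and Cebpa then keep each other on and switch on the genes of the fat cell. Lipoprotein lipase (Lpl) and the fatty acid carriers Cd36 and Fabp4 bring in fatty acids, perilipin 2 (Plin2) coats the lipid droplet, and the lipase encoded by Pnpla2 releases fatty acids from it. Hedgehog signalling, which acts through the Gli factors, is known to restrain adipogenesis.

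Totals ranged from 31728420 to 33905521 counts in the WT-labelled libraries and from 32781730 to 41035931 in the KO-labelled ones. Gli2 had 27.1 ± 1.19 CPM (counts per 1000000 of the library, scaled by TMM factors) in the WT-labelled libraries and 56.1 ± 1.96 in the KO-labelled ones. For Gli3 the levels were 12.5 ± 0.0452 and 40.7 ± 1.64 CPM (SD, n = 3 each). Each library labelled KO thus exceeded each library labelled WT for both targeted genes, by 1.05 and 1.71 on the log2 scale, which goes against their labelled genotype. The counts sum over all exons of a gene, so the floxed exons cannot be read separately. The study also checked deletion in its lines by qPCR and western blot and tested their response to Hedgehog, measurements not analysed here. It further reports, by RNA sequencing and qPCR, Ccl5 as higher and Il6 and Il11 as lower in its knock-out fibroblasts, genes not compared here. Whether labels were exchanged could not be settled from the counts of Gli2 and Gli3, and an exchange would turn the direction of every difference given here. Groups are therefore called by their labels throughout. Of 9 fibroblast markers, 8 had a row, summing to between 44831 and 47285 CPM in the WT-labelled libraries and between 36751 and 38493 CPM in the KO-labelled ones. Of the 7 tested, 4 were differentially expressed (Col3a1, Dcn, Pdgfra and Pdgfrb), all lower in the KO-labelled libraries. Of all tested genes, 6.1% were lower by the same limits, an adjusted p below 0.05 and a difference of 1.5-fold or more. With the adjusted p alone, 6 of the 7 were lower, beside 28.8% of all genes. Pdpn has no row, and Thy1 was under the filter (0.0526 and 0.389 CPM). Their part in the values of the 8 genes was not tested, and in bulk libraries fewer cells of a type cannot be told apart from less RNA per cell.

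Of the 8 measured genes, 1 was differentially expressed, which here takes an adjusted p below 0.05 together with a difference of 1.5-fold or more. That gene was Zfp423, the least abundant of them. Across all 14289 genes tested, 17.7% met these limits, 11.6% higher and 6.1% lower with the KO label. With the adjusted p alone, 5 of the 8 passed, beside 58.7% of all genes. Of these 5, 4 were higher with the KO label (29.9% of all genes) and 1 was lower (28.8%). The groups did not overlap in CPM for 5 of the 8, beside 64.3% of all genes, and 3 of the 5 were higher with the KO label (32.6% of all genes). The median absolute log2 fold change was 0.15 over the 8 genes and 0.22 over all genes. Taken over both directions, each of the 3 counts lies within 1 gene of what the share of the whole table would give for 8 genes. By the adjusted p alone, more of the 8 genes were higher than lower, a count of few genes that was not tested. Of the 4 higher genes, Zfp423 passed the filter on low counts only through the libraries labelled KO. Cebpb, another of the 4, had an adjusted p under 0.05 in 10 of 15 fits. Adjusted p-values are Benjamini-Hochberg values over all genes from the quasi-likelihood test of edgeR, unless another tool is named. An exact permutation test of 3 libraries against 3 cannot give a two-sided p under 0.1.

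**Figure D1:**
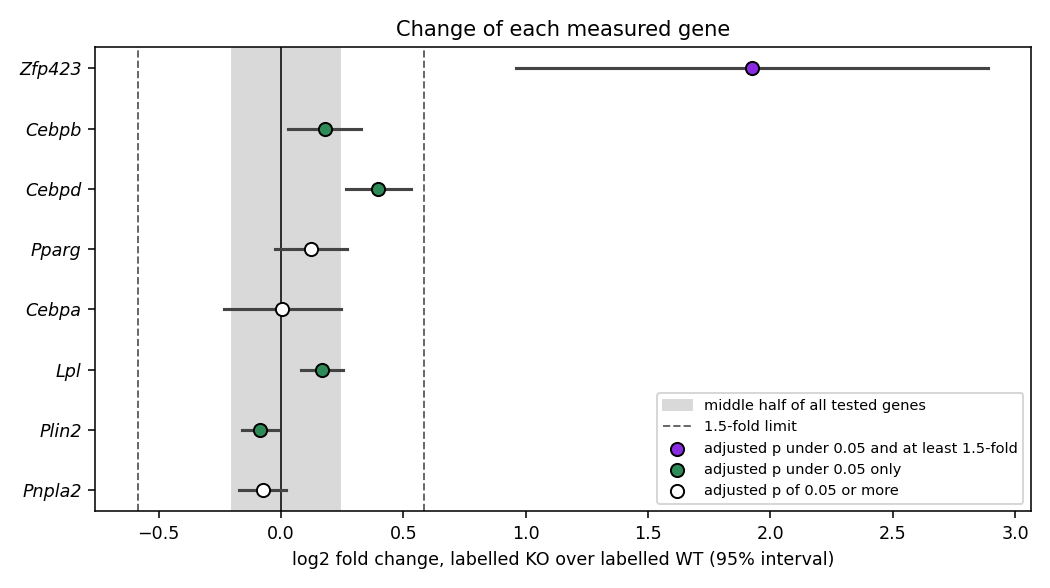
Log2 fold change of each measured gene (libraries labelled KO over libraries labelled WT, horizontal axis) with its 95% interval, with the fill of the point showing which limits were met. Zfp423 lies at 1.93 with a wide interval, Cebpd at 0.40, and the other 6 between -0.08 and 0.18, inside the grey band from -0.20 to 0.24 that holds the central part of all tested genes.

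Per transcript length, Cebpb was the most abundant of the 8 genes. It had 286 ± 10.9 TPM (transcripts per 1000000, from the exon length of each gene in GENCODE M21) in the WT-labelled libraries. Cebpd followed at 81.2 ± 7.09, Plin2 at 65.0 ± 0.686, Pnpla2 at 36.5 ± 0.845, Lpl at 16.6 ± 0.685, Pparg at 14.3 ± 0.560, Cebpa at 5.54 ± 0.398 and Zfp423 at 0.0844 ± 0.0641 TPM. The libraries labelled KO gave the same order, from 332 ± 40.3 TPM for Cebpb to 0.339 ± 0.0553 TPM for Zfp423. In both groups the ranges of neighbouring genes did not overlap. The order depends on the length used: with the longest transcript of each gene, Plin2 (90.9 TPM) stood above Cebpd (61.0 TPM) in the WT-labelled libraries, and Lpl (31.7 TPM) came level with Pnpla2 (31.6 TPM). On either length, the early factor Cebpb stood far above its late relative Cebpa.

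**Figure D2:**
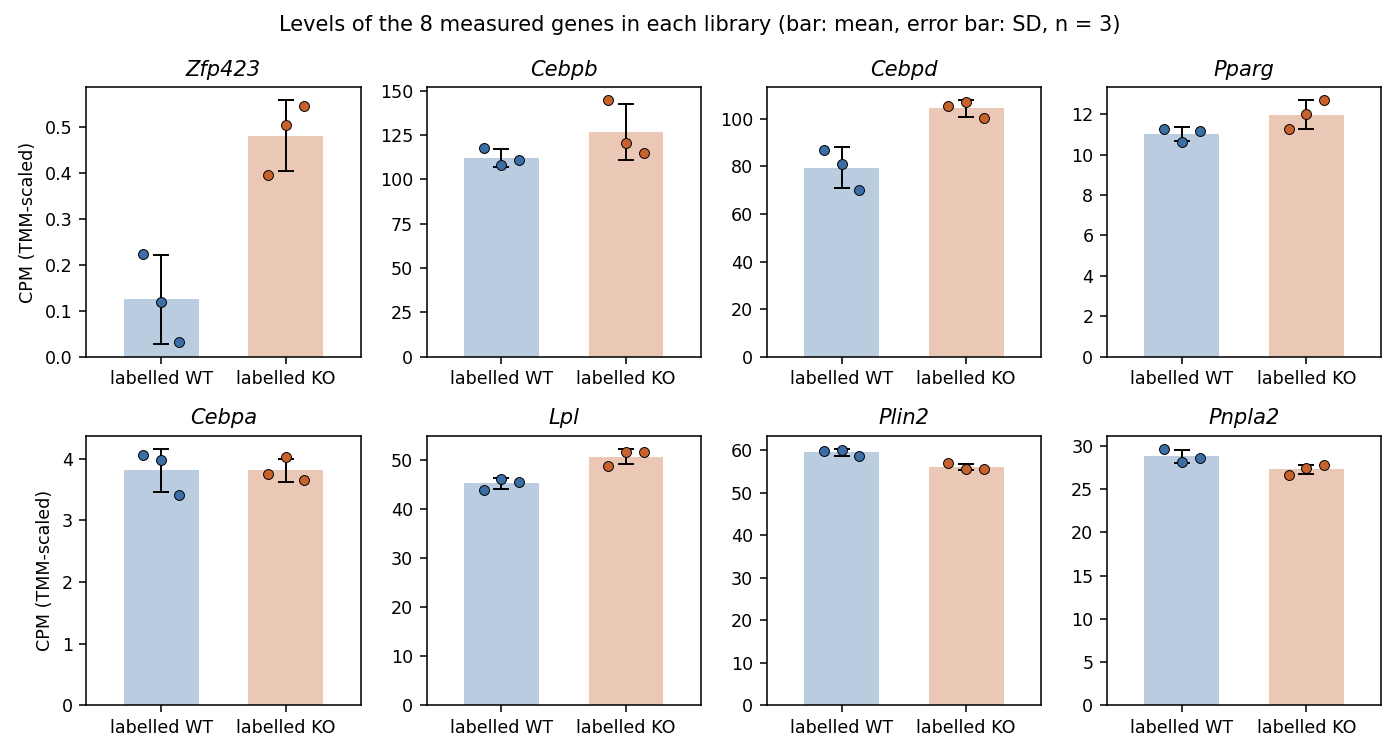
CPM of the 8 measured genes in each of the 6 libraries (points), with the mean (bar) and SD (error bar) of the 3 libraries labelled WT and the 3 labelled KO, and a vertical axis that starts at 0 in each panel. Cebpd, Lpl and Zfp423 are higher in every library labelled KO, Plin2 and Pnpla2 are slightly lower in every one, and Pparg, Cebpa and Cebpb overlap.

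Zfp423 and Cebpd differed most between the groups, and the value of Zfp423 rests on few counts. Zfp423 encodes a zinc finger factor of the precursor stage. It lies on chromosome 8 from 87661810 to 87959595 (GENCODE M21, GRCm38, used for all gene positions). It had 7, 4 and 1 counts in the WT-labelled libraries and 14, 21 and 18 in the KO-labelled ones, or 0.125 ± 0.0962 and 0.481 ± 0.0774 CPM. Every library labelled KO stood above every library labelled WT, at a level where 3 counts are between 0.0719 and 0.0958 CPM. The change was 3.80-fold (95% interval 1.95 to 7.41, adjusted p = 0.00235). It passed the filter on low counts, at about 0.300 CPM in 3 libraries, only through the libraries labelled KO, where it is high, so that its call is given as a description. With at least 10 counts required in every library it was not tested. Leaving out the library labelled WT with 7 counts moved its log2 fold change from 1.93 to 2.60, and leaving out the one with 1 count moved it to 1.48.

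Cebpd (chromosome 16 from 15887286 to 15891031), which encodes C/EBP delta, had 87.0, 81.2 and 70.2 CPM in the WT-labelled libraries. In those labelled KO it had 106, 107 and 101 CPM. The groups did not overlap, and the libraries labelled WT were spread more widely than those labelled KO. The difference was 1.32-fold (95% interval 1.20 to 1.44, adjusted p = 1.04e-04), below the 1.5-fold limit. Its adjusted p stayed below 0.05 in 15 of 15 fits, which included other scalings, filters and tools and the omission of single libraries. Cebpb (chromosome 2 from 167688915 to 167690418), which encodes C/EBP beta, had 118, 108 and 111 CPM in the WT-labelled libraries. In those labelled KO it had 145, 120 and 115 CPM, so that 1 library of this group stood apart and the lowest overlapped the other group. The difference was 1.13-fold (95% interval 1.02 to 1.26, adjusted p = 0.0397). Without the library at 145 CPM, the log2 fold change fell from 0.18 to 0.07 and the adjusted p was 0.201. By DESeq2 the adjusted p was 0.175. Both genes consist of 1 exon block that overlaps a neighbour on the opposite strand, Spidr over 562 bases of Cebpd and Tmem189 over 312 bases of Cebpb. Whether the counting used strand is not given in the sources used here, and without strand the reads of these stretches cannot be told apart. Spidr had 24.5 and 27.0 CPM (adjusted p = 0.0266) and Tmem189 22.0 and 21.2 CPM (adjusted p = 0.392), and their part in the values was not tested.

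The late factors did not pass the test. Pparg (chromosome 6 from 115360951 to 115490399) encodes the nuclear receptor that is both needed and sufficient for fat cell formation. It had 11.3, 10.6 and 11.2 CPM in the WT-labelled libraries and 11.3, 12.0 and 12.7 CPM in the KO-labelled ones. Of the KO-labelled libraries, 1 lay within the range of the other group. The ratio was 1.09 (95% interval 0.984 to 1.21, adjusted p = 0.135). Only with upper-quartile scaling, 1 of 15 fits, did Pparg reach an adjusted p under 0.05, at 0.0346. Cebpa (chromosome 7 from 35119293 to 35121928), which encodes C/EBP alpha, had 4.06, 3.97 and 3.42 CPM in the WT-labelled libraries and 3.75, 4.03 and 3.66 CPM in the KO-labelled ones. Its values were interleaved between the groups, with a ratio of 1.00 (95% interval 0.851 to 1.18, adjusted p = 0.972). The intervals leave out a 1.5-fold change in either direction for both genes. The levels of Pparg were most alike, over the 6 libraries and among 12308 genes with a mean of at least 1 CPM, to those of Gm47766 (Pearson r = 0.997 on log2 CPM) and Zfp607a (0.987). Gm47766 had a mean of only 1.05 CPM in the WT-labelled libraries and 1.24 CPM in the KO-labelled ones, close to that limit. In all, 133 genes had an r over 0.9, and all points share the same 6 libraries.

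Promoter sequences of 3 of these factors are shown because they carry letters that C/EBP or CREB proteins are known to bind, and because they show how unlike the starts of these genes are. RefSeq (GRCm38.p6) gives 10 promoters for 7 of the 10 genes. The 250 bases before each start were searched on both strands for TGACG (CREB half-site), TTGCNNAA (C/EBP site), GACCACCCA (GLI site) and the direct repeat of AGGTCA with 1 base between that PPAR binds with RXR. Capitals mark the matches, and each line reads 5′ to 3′ on the strand of the gene.
Cebpb, chr2:167688665-167688914, plus strand: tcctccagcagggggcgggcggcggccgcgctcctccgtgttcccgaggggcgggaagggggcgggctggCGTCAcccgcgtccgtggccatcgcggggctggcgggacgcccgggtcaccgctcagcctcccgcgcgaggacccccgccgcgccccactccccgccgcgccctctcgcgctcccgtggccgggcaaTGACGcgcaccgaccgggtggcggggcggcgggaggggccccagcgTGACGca
Pparg, the most downstream start, chr6:115421816-115422065, plus strand: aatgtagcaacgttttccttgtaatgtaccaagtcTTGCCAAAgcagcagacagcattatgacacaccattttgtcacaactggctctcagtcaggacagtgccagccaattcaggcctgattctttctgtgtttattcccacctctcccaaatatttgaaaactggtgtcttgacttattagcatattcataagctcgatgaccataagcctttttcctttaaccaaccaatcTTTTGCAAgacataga
Zfp423, upstream start, chr8:87959596-87959845, minus strand: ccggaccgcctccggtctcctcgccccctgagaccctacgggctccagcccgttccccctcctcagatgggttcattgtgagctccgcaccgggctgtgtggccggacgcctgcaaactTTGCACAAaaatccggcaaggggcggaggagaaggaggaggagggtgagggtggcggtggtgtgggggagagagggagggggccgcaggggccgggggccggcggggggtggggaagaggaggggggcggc
The Cebpb promoter held the CREB half-site 3 times, ending 176, 49 and 3 bases before the start, and no other listed gene's promoter held it. Of all 32851 promoters, 17.8% held it. The C/EBP site was found in 2 of the 10 promoters, those of the most downstream Pparg start and of the upstream Zfp423 start, beside 9.56% of all. In Pparg it occurred 2 times, 215 and 16 bases before the start, in a promoter with 40.8% G and C, while the promoter of the most upstream Pparg start had 82.4%. The counts sum over all Pparg starts and cannot say which was used. Neither the GLI site (0.225% of all promoters) nor the PPAR-RXR repeat (0.0335%) occurred in the 10 promoters. These are matches of letters only.

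Lpl, Plin2 and Pnpla2, the measured genes of uptake, storage and release, each differed by less than 1.5-fold. Lpl (chromosome 8 from 68880491 to 68907448), whose enzyme frees fatty acids from circulating lipoproteins, had 44.0, 46.2 and 45.7 CPM in the WT-labelled libraries and 48.9, 51.8 and 51.6 CPM in the KO-labelled ones. The groups did not overlap. The difference was 1.12-fold (95% interval 1.06 to 1.19, adjusted p = 0.00262), below the 1.5-fold limit, with an adjusted p under 0.05 in 15 of 15 fits. Angptl4, a secreted inhibitor of the enzyme chosen after its values were seen, was 1.49-fold higher in the KO-labelled libraries (19.8 ± 1.54 and 29.5 ± 1.42 CPM, adjusted p = 3.91e-06), just under the fold limit.

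Plin2 (chromosome 4 from 86648386 to 86670060), the perilipin found on lipid droplets of most cell types, had 59.9, 60.1 and 58.6 CPM in the WT-labelled libraries and 57.0, 55.6 and 55.6 CPM in the KO-labelled ones. It varied least of the 8 genes between wells, with coefficients of variation of 1.38% and 1.44%. The groups did not overlap, but the ratio was 0.943 (95% interval 0.896 to 0.992, adjusted p = 0.0464). That p passed in 6 of 15 fits: it was 0.514 with upper-quartile scaling, and from 0.0449 to 0.136 when single libraries were left out, below 0.05 in 1 of those 6 fits. Pnpla2 (chromosome 7 from 141455198 to 141460743) encodes the lipase that starts the breakdown of stored triglyceride. It had 29.7, 28.1 and 28.5 CPM in the WT-labelled libraries and 26.7, 27.4 and 27.8 CPM in the KO-labelled ones. Although the groups did not overlap, the ratio of 0.949 (95% interval 0.889 to 1.01) had an adjusted p of 0.159.

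Around Plin2, the other perilipins moved further. Plin3 fell from 120 ± 2.57 CPM in the WT-labelled libraries to 72.7 ± 1.04 in the KO-labelled ones (log2 fold change -0.72, adjusted p = 1.13e-09). Plin4, a perilipin of fat cells and muscle, fell from 22.2 ± 2.05 to 12.8 ± 1.16 CPM (log2 fold change -0.80, adjusted p = 2.48e-06). Per length, Plin2 made up 33.0%, 32.4% and 31.4% of the 3 perilipin transcripts in the WT-labelled libraries and 43.2%, 42.8% and 42.1% in the KO-labelled ones. Its share was thus higher in the KO-labelled libraries while its own level was not, since the sum of the 3 genes went from between 194 and 208 TPM to between 146 and 148 TPM. Plin1 and Plin5 have no row.

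**Figure D3:**
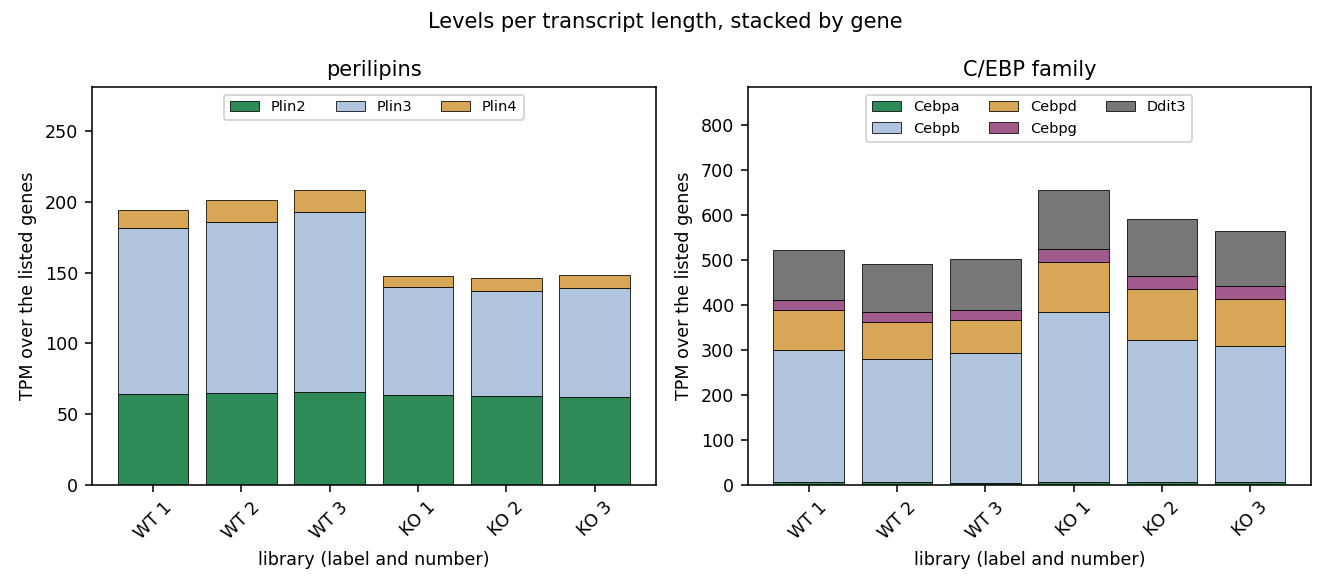
Stacked TPM of the perilipin genes (left) and of the C/EBP family (right) in each library (horizontal axis, label and number). The Plin2 segment keeps nearly the same height while that of Plin3 shrinks in the 3 libraries labelled KO, and Cebpb is the largest C/EBP segment in all 6 libraries, with Cebpa barely visible.

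Per length, Cebpb made up between 53.5% and 57.7% of the transcripts of 5 C/EBP family genes in the 6 libraries, and Cebpa between 0.854% and 1.17%. The ratio of Cebpb to Cebpd was 3.37, 3.31 and 3.93 in the WT-labelled libraries and 3.42, 2.80 and 2.85 in the KO-labelled ones, which overlap. Cebpg, which encodes a family member without an activation domain of its own, was 1.34-fold higher in the KO-labelled libraries (31.6 ± 1.62 and 42.1 ± 1.22 CPM, adjusted p = 6.18e-06). Among the receptors, Pparg stood beside Ppard, with 14.4, 13.7 and 14.8 TPM against 22.5, 22.3 and 21.9 TPM in the WT-labelled libraries. In the KO-labelled ones Pparg had 15.0, 16.1 and 17.0 TPM and Ppard 20.5, 19.8 and 20.3 TPM, and Ppard was lower below the fold limit (log2 fold change -0.18, adjusted p = 0.00211). Ppara was the only differentially expressed PPAR gene, rising from 0.812 ± 0.243 to 1.76 ± 0.267 CPM (log2 fold change 1.11, adjusted p = 8.93e-04). Their dimer partner Rxra was more abundant than any of them, at 90.8, 94.2 and 97.8 TPM in the WT-labelled libraries and 87.0, 86.3 and 87.0 TPM in the KO-labelled ones. These 4 relatives were chosen after their values were seen.

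Beside Pnpla2 in lipolysis, its co-activator gene Abhd5 had 35.6 ± 1.09 and 32.8 ± 1.83 CPM (adjusted p = 0.0646) and Lipe, which encodes hormone-sensitive lipase, 12.0 ± 0.391 and 13.4 ± 1.45 CPM (adjusted p = 0.109). Mgll, which encodes the lipase of the last step, was 1.40-fold higher in the KO-labelled libraries (adjusted p = 2.07e-05). G0s2, whose product inhibits the Pnpla2 lipase, had 27, 15 and 16 counts in the WT-labelled libraries and 8, 1 and 3 in the KO-labelled ones. It passed the filter on low counts only through the WT-labelled libraries, where it is high, so that its difference is given as counts alone. These 4 genes were chosen after their values were seen.

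Wider lists placed these genes in their pathways. These lists were chosen with earlier results of these data known, so their shares beside that of all genes are a description. Of 37 adipogenic regulators tested, 15 (40.5%, beside 17.7% of all genes) were differentially expressed, with 10 of them higher and 5 lower in the KO-labelled libraries. The list had a median log2 fold change of -0.05 and a median absolute change of 0.42. The 15 include Dlk1, with 3, 4 and 9 counts in the WT-labelled libraries and 27, 23 and 24 in the KO-labelled ones. They also include Ppargc1b, with 28, 29 and 33 counts and 8, 27 and 17 counts in the same order. Neither would have passed the filter on low counts without the group where it is high. With at least 10 counts required in every library, where neither was tested, it was 13 of 35, 9 higher and 4 lower, beside 1926 of 13155 genes. Ebf1, an early B cell factor that promotes adipogenesis, rose from 2.95 ± 0.269 to 11.3 ± 0.306 CPM (log2 fold change 1.93, adjusted p = 1.72e-09). Gata2, which restrains it, rose from 6.27 ± 0.304 to 15.3 ± 0.726 CPM (1.29, adjusted p = 1.02e-08). Zfp521, an antagonist of Zfp423 and of Ebf1, fell from 77.2 ± 3.20 to 41.3 ± 1.63 CPM (-0.90, adjusted p = 2.19e-09), and Klf4, an early inducer of Cebpb, from 171 ± 4.93 to 80.3 ± 1.26 CPM (-1.09, adjusted p = 2.76e-11). Among these 4, a promoter and a restrainer of adipogenesis were higher, and a promoter and a restrainer were lower.

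Of 19 genes of fatty acid uptake and activation, 2 (10.5%) were differentially expressed, both higher in the KO-labelled libraries. Slc27a1, which encodes a fatty acid transporter, rose from 2.31 ± 0.470 to 15.0 ± 0.476 CPM (log2 fold change 2.71, adjusted p = 4.24e-10). Vldlr, which encodes a lipoprotein receptor, rose from 9.91 ± 0.446 to 31.1 ± 0.719 CPM (1.65, adjusted p = 5.95e-11). Both exceeded the change of Lpl in size, and the median over the 19 genes was 0.03. Fabp5, a relative of Fabp4 chosen after its values were seen, had 62.5 ± 2.88 and 63.7 ± 4.12 CPM (adjusted p = 0.602).

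Of 23 genes of triglyceride storage and lipolysis, 6 (26.1%) were differentially expressed, 3 in each direction, with a median log2 fold change of -0.08. These include G0s2 and Cideb, which each passed the filter on low counts only through the group where they are high. With at least 10 counts required in every library, it was 4 of 21 genes, 2 in each direction, beside 1926 of 13155 genes. Besides the perilipins, the rule for named genes gave Lpin3, which encodes a phosphatidate phosphatase (1.19 ± 0.135 and 2.32 ± 0.152 CPM, log2 fold change 0.97, adjusted p = 1.51e-04). It also gave Cideb, with 10, 6 and 11 counts in the WT-labelled libraries and 21, 28 and 23 in the KO-labelled ones. Cideb would not have passed the filter on low counts without the libraries labelled KO, where it is high. Its difference is therefore given as counts alone. Of the Cideb exons, 76.3% overlap Nop9 on the opposite strand, so its value is uncertain. Of 21 genes of fatty acid oxidation and PPAR targets, 3 (14.3%) were differentially expressed, all higher in the KO-labelled libraries, with a median of -0.03. Of the 3, Ehhadh had 7, 7 and 15 counts in the WT-labelled libraries and 45, 42 and 40 in the KO-labelled ones. It would not have passed the filter on low counts without the KO-labelled libraries, where it is high. With at least 10 counts required in every library, where Ehhadh was not tested, it was 2 of 20. Acot1 rose from 4.89 ± 0.614 to 26.1 ± 2.30 CPM (2.42, adjusted p = 2.73e-10) and Acot2 from 15.5 ± 1.90 to 24.7 ± 2.12 CPM (0.68, adjusted p = 1.73e-05). These thioesterase genes are near-identical neighbours, and how reads were divided between them is uncertain. Without the library labelled WT with number 3, Acot2 had a log2 fold change of 0.58, just under the limit.

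**Figure D4:**
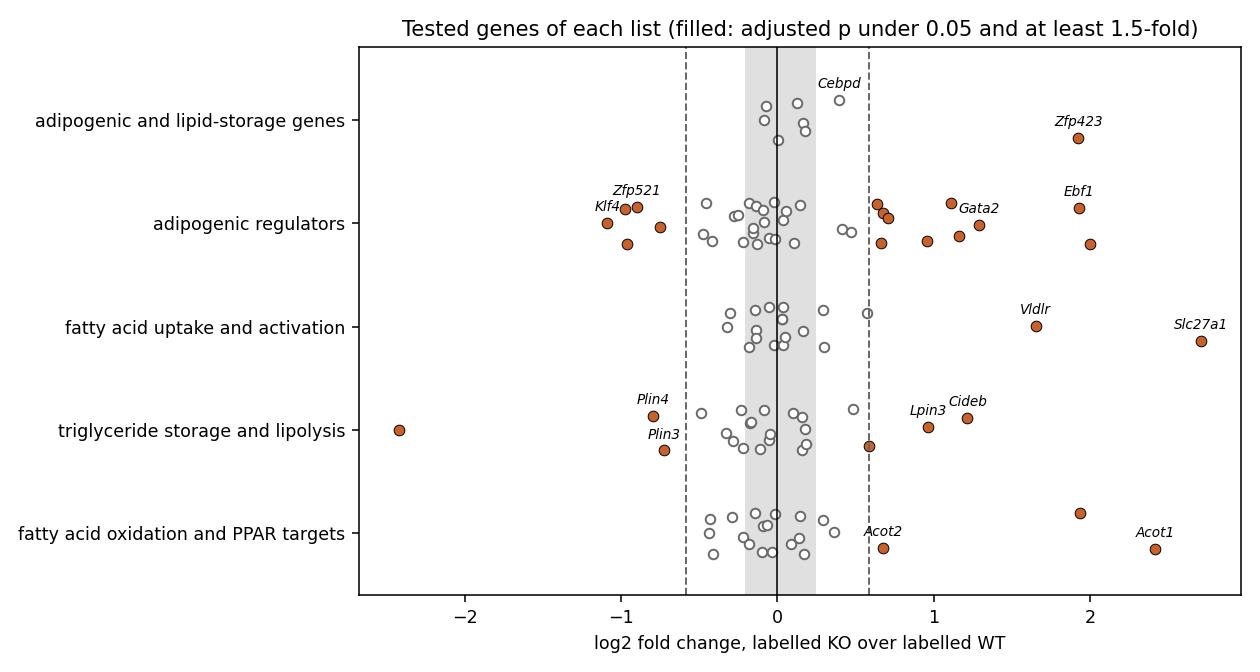
Log2 fold change (horizontal axis, libraries labelled KO over labelled WT) of every tested gene in each list, filled where the adjusted p was under 0.05 and the change at least 1.5-fold (dashed lines), with the grey band from -0.20 to 0.24 for the central part of all tested genes. Of the 8 measured adipogenic and lipid-storage genes 1 is filled (Zfp423), and of the adipogenic regulators 15 of 37.

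Markers of the fat cell itself were mostly without a row. Of 15 listed, Lipe and Plin4 were present and summed to between 32.3 and 35.5 CPM in the WT-labelled libraries and between 24.9 and 28.1 CPM in the KO-labelled ones. The 2 genes went opposite ways. Plin4 was differentially expressed and lower (22.2 and 12.8 CPM), beside 6.1% of all tested genes. Lipe was not (12.0 and 13.4 CPM, adjusted p = 0.109). Adipoq, Lep, Cfd, Retn, Plin1, Cidec and Slc2a4 were among the 13 with no row, which gives no level for them. Several of the genes above are also used by macrophages and endothelial cells. Of 10 macrophage markers, 5 had a row, summing to between 55.9 and 61.0 CPM in the WT-labelled libraries and between 52.8 and 54.4 CPM in the KO-labelled ones, while Ptprc, Adgre1, Itgam, Mrc1 and Tyrobp had none. None of the 5 was differentially expressed by edgeR, where 3 had an unadjusted p under 0.05, or by DESeq2. With the edgeR adjusted p alone, 2 of the 5 passed, both lower in the KO-labelled libraries, beside 28.8% of all tested genes. With the DESeq2 adjusted p alone, 1 passed. Of 10 endothelial markers, Egfl7, Flt1 and Esam had a row, summing to between 1.82 and 2.79 CPM and between 6.51 and 7.34 CPM in the same order, while Pecam1, Cdh5 and Kdr had none. Of the 3 tested, Egfl7 and Flt1 were differentially expressed, both higher in the KO-labelled libraries, beside 11.6% of all tested genes. Of 10 acinar and ductal markers, 5 had a row, summing to between 20.2 and 22.7 CPM and between 44.0 and 45.5 CPM. Of the 4 tested, Krt7, Cela1 and Cdh1 were differentially expressed, all higher in the KO-labelled libraries, beside 11.6% of all tested genes. Cdh1 had 10, 14 and 9 counts in the WT-labelled libraries and 28, 33 and 19 in the KO-labelled ones. It would not have passed the filter on low counts without the libraries labelled KO, where it is high. Sox9, the other one, had 8.51 ± 0.103 and 6.03 ± 0.446 CPM and was lower in each KO-labelled library (log2 fold change -0.50, adjusted p = 1.73e-04), below the fold limit. Epcam, Krt19 and Cpa1 had no row. The part of these markers in the values of the 8 genes was not tested.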

How the data were processed

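Libraries of polyadenylated RNA from 6 wells were sequenced by the authors. They deposited raw counts of reads per gene, without normalization, and a second table of log2 CPM values from voom of limma. STAR 2.7.2b, featureCounts, limma and GRCm38.p6 are named in the submitters' processing notes. The annotation and strand setting are not given in the sources used here. The lowest row total in the table is 20 counts. Of 14831 identifiers, 14822 matched GENCODE M21.

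The test on the counts was that of edgeR 4.0.16 under R 4.3.3 (TMM factors, filterByExpr, quasi-likelihood F test), with 14289 genes tested over all 6 libraries. Intervals are 95% and derive from the log2 fold change and its F statistic. Genes named outside the 10 were up to 2 in each direction from each list, by size of change, if each library of the group with the higher level had 100 counts, or 10 where fewer than 2 genes had 100. For likeness to Pparg, the rule took the top 3 by Pearson r, of which 1 is not reported here. The genes and lists were chosen with earlier results of these data known. TPM used exon lengths over the listed genes. Replicates were compared by chi-square, between 2.50 and 7.74 per degree of freedom, and all 6 libraries were kept. Alternatives were scaling by RLE, by the upper quartile or by totals, 2 other filters, 2 other limits, limma-voom, DESeq2 1.42.0, limma 3.58.1 on the deposited log2 values, each library left out, and the longest transcript as length. Scripts were tested on simulated data.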

Additional observations from a re-analysis of the deposited data

How the results depend on the processing

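The number of differentially expressed genes depended most on the fold limit. With the adjusted p alone it was 8391 of 14289 over all genes (58.7%) and 5 of the 8 measured adipogenic and lipid-storage genes. In the lists it was 29 of 37 adipogenic regulators, 11 of 19 genes of uptake and activation, 18 of 23 of storage and lipolysis and 17 of 21 of oxidation and PPAR targets. With a 2-fold limit it was 1456 of 14289 over all genes, 6 of 37 regulators and 2 of 23 genes of storage and lipolysis. It was 0 of the 2 adipocyte markers tested (edgeR, with 1 at an unadjusted p under 0.05, and 1 called by DESeq2 at 1.5-fold). With at least 10 counts required in every library, edgeR called 0 of 7 measured genes, because Zfp423 was no longer tested. Of these 7, 4 had an unadjusted p under 0.05. DESeq2 was run only with the filter of the main test, where it called 1 of the 8 measured genes, Zfp423. Between 2501 and 2618 genes were called with each library left out in turn, against 2531 with all 6. No called gene changed direction among those refitted, which were the measured genes, both targeted genes and those named by the rule from the lists. Other scalings moved the median log2 fold change of all genes from 0.00 to at most 0.06. No paired analysis was possible because the labels number no replicates. Depth limits Zfp423 most, with at most 21 counts in a library.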

Other observations

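Genes of insulin signalling and PPAR co-activation, chosen after their values were seen, also went both ways. Irs2, an adaptor of the insulin receptor, rose from 82.3 ± 1.59 CPM in the WT-labelled libraries to 130 ± 2.41 in the KO-labelled ones (SD, n = 3 each; log2 fold change 0.67, edgeR adjusted p = 2.40e-09). Irs1 was lower, at 68.2 ± 2.54 and 49.8 ± 3.33 CPM (-0.45, under the 1.5-fold limit), and the receptor gene Insr had 80.6 ± 3.67 and 79.8 ± 4.79 CPM (edgeR adjusted p = 0.830). Prdm16, known from brown fat, rose from 4.89 ± 0.105 to 9.51 ± 0.169 CPM. Ppargc1a, which encodes a PPAR co-activator, had a log2 fold change of -0.75 at levels near or below 1 CPM. Ppargc1b, which encodes another, had 28, 29 and 33 counts in the WT-labelled libraries and 8, 27 and 17 in the KO-labelled ones. It would not have passed the filter on low counts without the WT-labelled libraries, where it is high. Its difference is therefore given as counts alone. Nr1h3, a lipid-sensing receptor, fell from 2.77 ± 0.200 to 1.42 ± 0.0681 CPM.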
